A study of Homo sapiens with 12 samples.

Results

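Genomic imprinting leaves 1 parental copy of a gene active and the other silent, and it is kept through cell division by DNA methylation of control regions set in the germ line. The data here cover 10 imprinted genes, H19, IGF2, CDKN1C, MEG3, DLK1, PEG3, PEG10, SGCE, MEST and NDN, out of 60660 gene identifiers counted. They were taken as a list of symbols and matched through their Ensembl identifiers, and the list was chosen by a measured value, the count of H19, which was much higher in cells given 1 µM doxorubicin than in their vehicle controls. For that reason the contrast of those 2 groups is described without p-values.

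The cells were labelled HS578T, an established triple-negative breast cancer line of mesenchymal type, and were sampled after 48 h. One group of 3 libraries came from cells labelled as lacking 1 copy of the short arm of chromosome 17 (17p), titled 17PKO, in 1 µM doxorubicin, an anthracycline that poisons DNA topoisomerase. A further 3 came from the 17PKO cells in DMSO, the vehicle. The other groups, also of 3 libraries each, came from cells titled cas9 with the genotype given as WT and 17p intact, in 170 nM doxorubicin or in DMSO. Genotype and dose therefore change together wherever treated libraries of the 2 genotypes are compared. The labels do not say whether 17PKO is 1 clone or a pool, or how the deletion was made. They also do not call the replicates independent cultures, and a p-value here weighs a difference against a spread between libraries that may be technical alone. Counts do not separate the parental alleles, and methylation was not measured.

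Library totals ran from 66150539 to 99142099 counts, and levels are given as counts per 1000000 (CPM) scaled by the trimmed mean of M values (TMM). At these depths 3 counts, the limit that a count of 0 allows, stood for 0.0303 to 0.0454 CPM by library total. Floors cover counting error only. The mitochondrial share was 6.90% in deleted DMSO replicate 2 and 5.54% in intact doxorubicin replicate 1, against 2.61 to 3.57% in the other libraries. In DMSO the median log2 fold change, deleted over intact, was -0.12 for 399 genes of 17p and 0.04 for other genes. Of 10 mesenchymal markers 9 averaged at least 1 CPM, and their summed level was 5889 to 6007 CPM in deleted doxorubicin, 7443 to 7855 in deleted DMSO and 8878 to 9084 in intact doxorubicin libraries and 10260 to 10660 in intact DMSO libraries. Of 10 luminal epithelial markers 6 did so, with sums of 418 to 644 CPM over all libraries. Fewer cells of a type and less RNA per cell cannot be told apart in such bulk samples. A check of chromosome-specific transcripts did not match the line named in the labels in 12 of 12 libraries, so the groups are called here by their labels alone.

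The genes lie in 6 imprinted regions and work in different ways. At 11p15.5, H19 makes a long noncoding RNA from the maternal copy and carries miR-675 in its first exon, IGF2 makes a fetal growth factor from the paternal copy, and CDKN1C makes a maternally expressed inhibitor of cyclin-dependent kinases. H19 and IGF2 share a control region bound by CTCF and use enhancers beyond H19. At 14q32, MEG3 is a maternally expressed noncoding RNA and DLK1 a paternally expressed membrane protein of the Notch ligand family. PEG10, a retrotransposon-derived gene, and SGCE, which encodes epsilon-sarcoglycan, are paternally expressed from neighbouring starts at 7q21. MEST at 7q32, NDN at 15q11-q13 and PEG3 at 19q13.4 are also paternally expressed, and encode a protein of the alpha/beta-hydrolase fold, a protein of the MAGE family and a zinc finger protein.

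On hg38, by GENCODE 29, H19 lay at chr11:1995176-2001470 on the minus strand, IGF2 at chr11:2129112-2149603 (minus) and CDKN1C at chr11:2883213-2885773 (minus). MEG3 lay at chr14:100779410-100861031 (plus) and DLK1 at chr14:100725705-100738224 (plus). SGCE lay at chr7:94524204-94656572 (minus), PEG10 at chr7:94656325-94669695 (plus) and MEST at chr7:130486171-130506465 (plus). NDN lay at chr15:23685400-23687330 (minus) and PEG3 at chr19:56810077-56840728 (minus).

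The mature products of the miRNA gene inside H19 are shown because this host RNA carries the largest difference among the genes. They are RefSeq sequences (GRCh38.p14), written 5′ to 3′, with the seed, bases 2 to 8, in capitals. The seeds of the 2 arms differ. The miRNA gene itself had 0 counts in the 12 libraries, and the H19 counts say nothing of the level of either mature form.
miR-675-5p: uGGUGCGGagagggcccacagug
miR-675-3p: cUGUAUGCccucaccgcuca

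Promoter windows, from 250 bases before to 50 after the RefSeq start (GRCh38.p14), were at hand for 4 of the 10 genes, H19, MEG3, MEST and NDN. The 3 that belong to genes detected in these libraries are printed 5′ to 3′ on the gene's strand, so that the promoter of the gene that was higher with 1 µM doxorubicin can be read beside those of MEG3 and MEST. Capitals mark matches, on either strand, to 5 spelled motifs, the GC box (GGGCGG), the TATA box (TATAAA), the E-box (CACGTG), the cyclic AMP response element (TGACGTCA) and the YY1 core (GCCATNTT), and to the p53 half-site. The H19 window is chr11:2001217-2001516 on the minus strand, the MEG3 window chr14:100825858-100826157 on the plus strand and the MEST window chr7:130491835-130492134 on the plus strand.
H19: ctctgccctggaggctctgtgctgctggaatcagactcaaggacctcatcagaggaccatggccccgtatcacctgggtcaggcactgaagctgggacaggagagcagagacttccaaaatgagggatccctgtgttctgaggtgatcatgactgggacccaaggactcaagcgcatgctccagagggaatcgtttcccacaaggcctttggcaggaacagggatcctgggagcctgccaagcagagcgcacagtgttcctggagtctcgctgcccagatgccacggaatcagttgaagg
MEG3: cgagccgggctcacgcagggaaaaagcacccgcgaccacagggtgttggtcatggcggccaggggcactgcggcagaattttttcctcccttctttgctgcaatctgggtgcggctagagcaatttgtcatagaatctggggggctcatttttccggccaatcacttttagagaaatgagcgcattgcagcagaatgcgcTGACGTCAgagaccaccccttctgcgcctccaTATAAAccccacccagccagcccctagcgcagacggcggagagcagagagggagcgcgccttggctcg
MEST: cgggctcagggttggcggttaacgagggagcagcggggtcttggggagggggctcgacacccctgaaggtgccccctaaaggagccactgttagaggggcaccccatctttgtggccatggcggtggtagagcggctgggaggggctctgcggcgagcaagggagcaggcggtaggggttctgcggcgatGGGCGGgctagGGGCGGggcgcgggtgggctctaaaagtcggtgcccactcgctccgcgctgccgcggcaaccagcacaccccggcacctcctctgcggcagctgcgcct

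The H19 window held 6 CpG and no match to any of these motifs. The MEG3 window held 19 CpG, a cyclic AMP response element at -50 to -43 and a TATA box at -18 to -13 from the start. The MEST window held 25 CpG and 2 GC boxes, and the NDN window 35 CpG and 4 GC box matches. The MEG3 and MEST windows were the richest in CpG of each gene's windows, so the choice itself favoured high counts. Over 35116 promoter windows the quartiles were 4, 14 and 28 CpG. A GC box stood in 45% of them, a TATA box in 11.5%, an E-box in 7.26%, a cyclic AMP response element in 1.85%, a YY1 core in 6.58% and a p53 half-site in 6.63%. A match is a description of letters, not a bound site.

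Of the 10 genes, 7 passed the filter on low counts and were tested. PEG3 had 0 counts in every library. DLK1 had 3 counts over the 12 libraries, 1 in deleted doxorubicin replicate 3 and 2 in intact DMSO replicate 1. NDN had 12 counts, 4 each in deleted doxorubicin replicate 2, deleted DMSO replicate 3 and intact DMSO replicate 3. None of these 3 can be compared between groups at this depth. MEG3 was read in every library at 104 CPM or more while DLK1, its neighbour in the same imprinted region, was near 0.

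**Figure D1:**
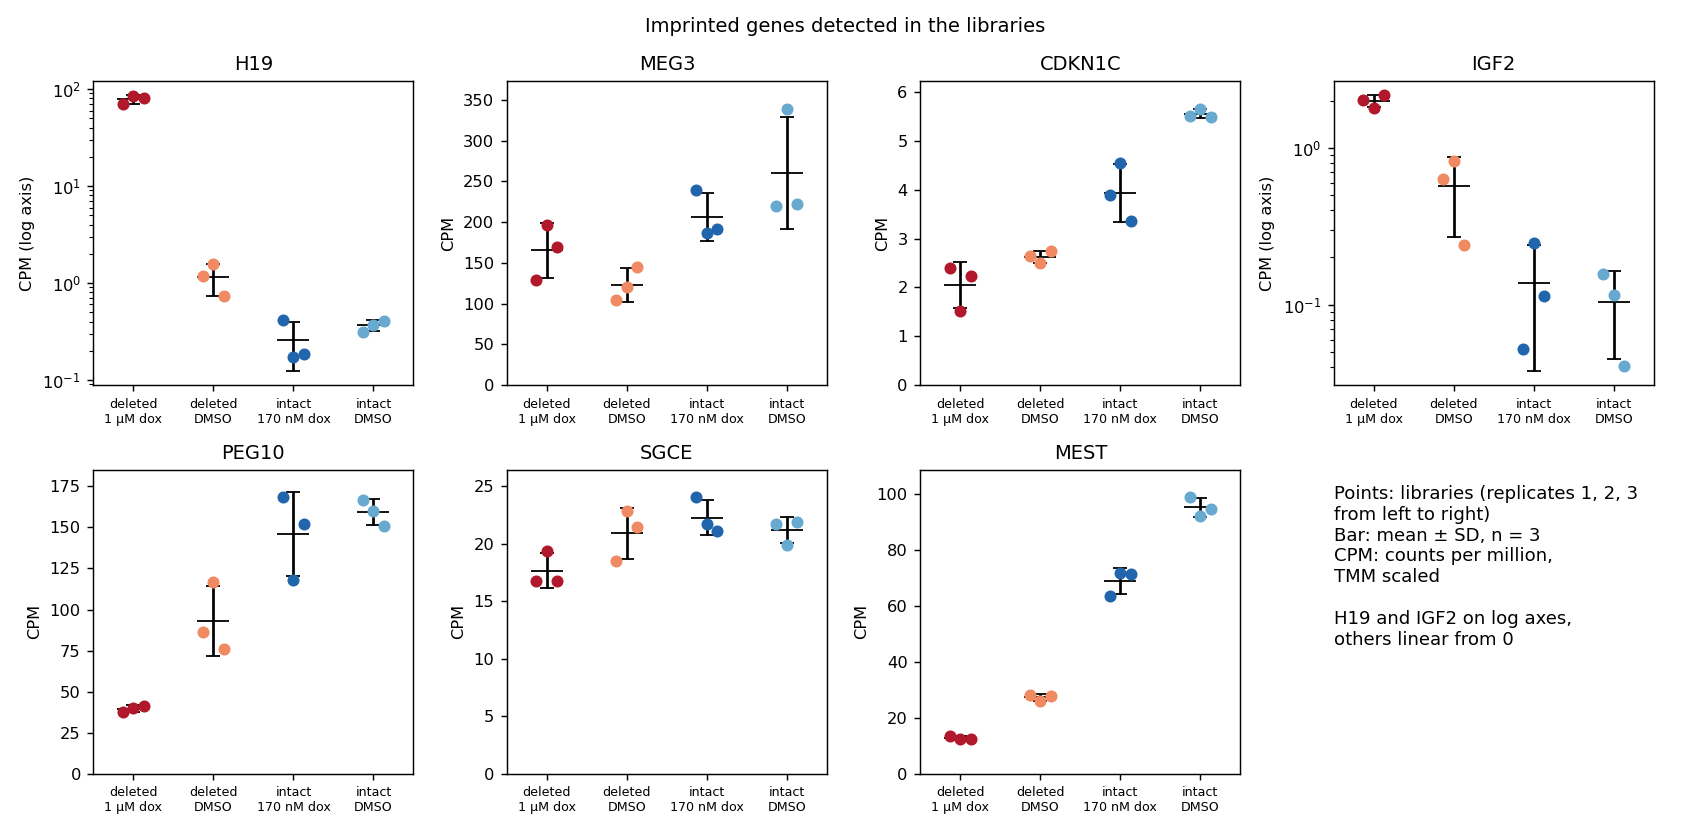
CPM (TMM scaled) of the 7 detected imprinted genes in each library, with the mean and SD of each group of 3; H19 and IGF2 are on log axes and the others on linear axes from 0. H19 stands between 69.5 and 85.3 CPM in the deleted doxorubicin libraries and under 2 CPM in all others, and MEST is lowest in deleted doxorubicin and highest in intact DMSO.

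H19 RNA was at 69.5, 85.3 and 81.7 CPM in the deleted doxorubicin libraries. It was at 1.18, 1.57 and 0.733 CPM in deleted DMSO libraries, at 0.415, 0.174 and 0.187 CPM in intact doxorubicin libraries and at 0.315, 0.373 and 0.407 CPM in intact DMSO libraries. The deleted doxorubicin libraries thus stood apart from all others, and the deleted DMSO libraries also lay above both intact groups. IGF2, the growth factor gene next to it, was a low-count gene in all libraries. It was at 2.02, 1.80 and 2.16 CPM in deleted doxorubicin libraries and 0.636, 0.828 and 0.240 CPM in deleted DMSO libraries. In intact doxorubicin libraries it was at 0.0519, 0.248 and 0.114 CPM, and in intact DMSO libraries at 0.158, 0.115 and 0.0407 CPM. The deleted doxorubicin libraries were again the highest, deleted DMSO lay above intact DMSO, and the 2 intact groups overlapped. IGF2 shares exon bases with 3 other entries on its own strand, each at 0 counts, and with IGF2-AS on the opposite strand, which reached 10 counts at most. Of its 6979 annotated exon bases, 5144 are shared with a second IGF2 entry and 1460 with INS-IGF2, both on its own strand. How reads in shared bases were assigned is not given in the sources used here, and neither is the strand setting. The IGF2 count may be too low for that reason, and with it the IGF2 level per length. The ratio of H19 to IGF2 may be too high.

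MEG3 was at 129, 197 and 170 CPM in deleted doxorubicin, 104, 120 and 144 CPM in deleted DMSO, 240, 186 and 192 CPM in intact doxorubicin and 219, 339 and 222 CPM in intact DMSO libraries. Its deleted DMSO libraries lay under both intact groups, and its deleted doxorubicin libraries overlapped with both deleted DMSO and intact doxorubicin ones. CDKN1C, the kinase inhibitor gene, was at 2.41, 1.53 and 2.23 CPM in deleted doxorubicin and 2.63, 2.50 and 2.75 CPM in deleted DMSO libraries, against 3.89, 4.55 and 3.36 CPM in intact doxorubicin and 5.52, 5.66 and 5.49 CPM in intact DMSO libraries. Every deleted library of CDKN1C lay under every intact library of it.

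PEG10 and SGCE, which start side by side in opposite directions, had different patterns. PEG10 had 37.4, 40.2 and 41.5 CPM in deleted doxorubicin and 86.0, 117 and 76.2 CPM in deleted DMSO libraries, against 168, 118 and 152 CPM in intact doxorubicin and 167, 160 and 151 CPM in intact DMSO libraries. SGCE stayed between 16.8 and 24.1 CPM over all 12 libraries. The annotated exons of the pair share 219 bases on opposite strands. MEST had 13.5, 12.4 and 12.5 CPM in deleted doxorubicin and 27.9, 25.9 and 27.9 CPM in deleted DMSO libraries, against 63.5, 71.7 and 71.4 CPM in intact doxorubicin and 98.7, 92 and 94.5 CPM in intact DMSO libraries. The 4 groups of MEST did not overlap at any point of this order. Its exons overlap those of MESTIT1 and COPG2 on the opposite strand, of which COPG2 had 4710 to 7804 counts in a library, so reads in the shared 228 bases could belong to either gene.

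Set against length, in CPM per kb of annotated exon, H19 was the highest of the 7 genes in deleted doxorubicin libraries, at 27.2, followed by MEG3 at 7.12, PEG10 at 5.93, MEST at 2.67, SGCE at 0.846, CDKN1C at 0.828 and IGF2 at 0.286. The libraries of MEG3 and PEG10 overlapped in that order, as did those of SGCE and CDKN1C. In deleted DMSO libraries PEG10 led at 13.9 CPM per kb, then came MEST at 5.69, MEG3 at 5.29, CDKN1C at 1.06, SGCE at 1.00, H19 at 0.402 and IGF2 at 0.0814, with overlap between MEST and MEG3 and between CDKN1C and SGCE. Both intact groups had the order PEG10, MEST, MEG3, CDKN1C, SGCE, H19, IGF2 with no overlap of neighbours. In intact DMSO libraries it ran from 23.8 CPM per kb for PEG10 and 19.8 for MEST to 0.126 for H19 and 0.0150 for IGF2. H19 was thus next to last of the detected genes per length in 3 groups and first in the fourth. With the longest transcript as the length MEST came before PEG10 in both intact groups and SGCE before CDKN1C in all but the deleted doxorubicin group, where SGCE was already ahead.

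The DMSO comparison asks how cells labelled as lacking a copy of 17p differ from intact ones without drug. H19 is given without a test, since its deleted DMSO libraries were the baseline of the contrast through which it was chosen. Of the other 6 genes tested, 1 was higher and 4 lower in deleted cells. The test was edgeR's quasi-likelihood test with Benjamini-Hochberg adjustment over 21803 genes and a threshold of 0.05. The 1 higher was IGF2, which reached the filter on low counts through the deleted libraries, so nothing is read from its call. Over all genes 34.9% passed, 18.8% higher and 16.2% lower. The libraries of the 2 groups did not overlap in 49.5%, against 6 of the 7 imprinted genes with H19 included. Nothing is read from that count, since the choice of H19 used its deleted DMSO libraries. The median log2 fold change of the 7 was -0.77, and that of all genes tested 0.04.

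H19 averaged 1.16 ± 0.42 CPM in deleted DMSO and 0.365 ± 0.046 CPM in intact DMSO cells (SD, n = 3 each), a log2 difference of 1.65 (SE 0.30). IGF2, given without a p-value since it reached the filter through the deleted libraries, was higher by 2.49 on the log2 scale (SE 0.57). It was at 0.568 ± 0.300 CPM in deleted and 0.104 ± 0.059 CPM in intact cells, both low levels. MEST, the paternally expressed gene of 7q32, had the smallest SE among the 7. It fell by 1.80 (SE 0.09, adjusted p = 9.57e-09 by edgeR), to 27.2 ± 1.1 CPM in deleted cells, against 95.1 ± 3.3 CPM in intact cells. CDKN1C fell by 1.08 (SE 0.17, adjusted p = 3.19e-04) and MEG3 by 1.08 (SE 0.19, adjusted p = 7.12e-04). PEG10 fell by 0.77 (SE 0.15, adjusted p = 0.00139), while SGCE differed by -0.02 with a 95% interval from -0.23 to 0.20. The calls of MEST, CDKN1C, MEG3 and PEG10 were also made in 23 of 23 alternatives. Any other difference between the 2 cell populations goes with the genotype label here and cannot be told apart from it. The summed mesenchymal markers were also lower in the deleted libraries, and their part in these results was not tested.

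In intact cells, 170 nM doxorubicin was set against DMSO. These are the libraries that played no part in the choice of H19. None of the 7 genes passed by edgeR's quasi-likelihood test, 2 had an unadjusted p under 0.05, and DESeq2 and limma-voom each called 1, MEST. Over all genes 0.0596% passed, which is 13 genes, 0.0275% higher and 0.0321% lower, and 2504 had an unadjusted p under 0.05. By DESeq2 467 of all genes were called, and by limma-voom 25. MEST was at 68.9 ± 4.7 CPM in treated and 95.1 ± 3.3 CPM in DMSO cells (SD, n = 3 each), a log2 difference of -0.46 (SE 0.08, adjusted p = 0.0588, with a range of 7.1e-05 to 0.354 over 23 alternatives, of which 9 called it). Without deleted DMSO replicate 2 its adjusted p was 0.019. CDKN1C averaged 3.93 ± 0.59 CPM in treated and 5.56 ± 0.09 CPM in DMSO cells, a log2 difference of -0.50 (SE 0.17, adjusted p = 0.287). The treated and DMSO libraries did not overlap in MEST and CDKN1C, 2 of the 7 genes, against 19.4% of all genes. H19 differed by -0.53 with a 95% interval from -1.25 to 0.18, so an increase like that in the 1 µM libraries lies outside the interval. The interval of IGF2 ran from -0.79 to 1.72, that of MEG3 from -0.71 to 0.04, that of PEG10 from -0.42 to 0.17 and that of SGCE from -0.14 to 0.29.

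**Figure D2:**
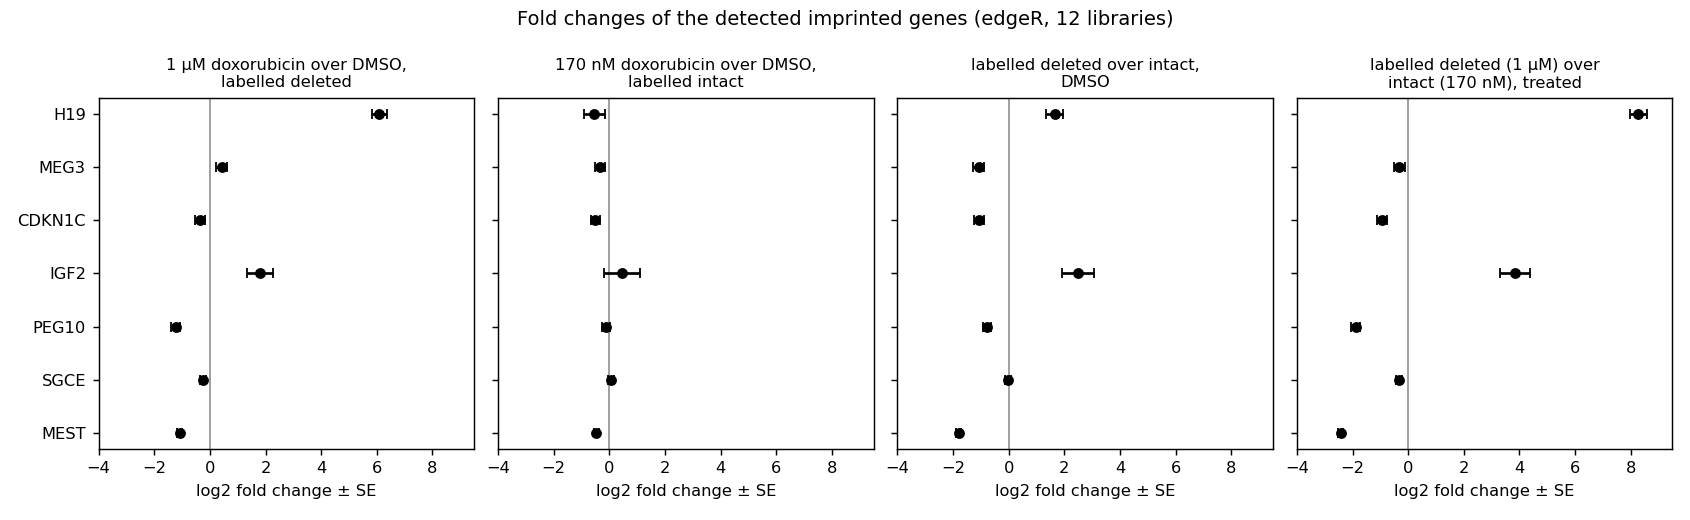
Log2 fold change ± SE of the 7 detected imprinted genes in 4 comparisons of groups of 3 libraries, from 1 edgeR fit of 12 libraries; positive values are higher in the group named first. H19 is at 6.09 with 1 µM doxorubicin and at -0.53 with 170 nM, and MEST lies left of 0 in all 4 panels.

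In deleted cells, 1 µM doxorubicin was set against DMSO, the contrast by which the list was chosen, and its values are given as a description. H19 averaged 78.8 ± 8.3 CPM in treated and 1.16 ± 0.42 CPM in DMSO cells (SD, n = 3 each), a fitted 67.9-fold difference or 6.09 on the log2 scale (SE 0.27), which ranked as number 27 from the top among 21803 genes. IGF2 averaged 1.99 ± 0.18 CPM in treated and 0.568 ± 0.300 CPM in DMSO cells, a log2 difference of 1.81 (SE 0.46). PEG10 averaged 39.7 ± 2.1 CPM in treated and 93.1 ± 21.3 CPM in DMSO cells, -1.23 on the log2 scale (SE 0.15). MEST averaged 12.8 ± 0.6 CPM in treated and 27.2 ± 1.1 CPM in DMSO cells, -1.09 (SE 0.09). The log2 differences of MEG3, CDKN1C and SGCE were 0.43, -0.36 and -0.24. The threshold was passed by 4 of the 7, H19, IGF2, PEG10 and MEST, where 30.7% of all genes passed it, and nothing is read from this count. By their libraries 5 of the 7 did not overlap, against 45.3% of all genes, and nothing is read from that either.

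Between treated cells, deleted at 1 µM and intact at 170 nM, dose and genotype cannot be told apart. H19, given without a test, averaged 78.8 ± 8.3 CPM in deleted and 0.258 ± 0.136 CPM in intact cells. Of the other 6 genes, IGF2 was higher by 3.84 on the log2 scale (SE 0.53). It is given without a p-value, since it reached the filter on low counts through the deleted libraries. MEST fell by 2.43 (SE 0.09, adjusted p = 2.6e-10 by edgeR), PEG10 by 1.88 (SE 0.16, adjusted p = 3.94e-07), CDKN1C by 0.94 (SE 0.17, adjusted p = 5.52e-04) and SGCE by 0.34 (SE 0.11, adjusted p = 0.0206). MEG3 differed by -0.32 (SE 0.19, adjusted p = 0.192). Over all genes 47.8% passed, 25.9% higher and 21.9% lower. The libraries did not overlap in 57.1%, against 6 of the 7 imprinted genes with H19 included. Nothing is read from that count, since the choice of H19 used its deleted doxorubicin libraries. SGCE lost its call in 3 of 23 alternatives, with adjusted p up to 0.06, 1 of them being the fit without deleted doxorubicin replicate 3 at 0.0511. In that comparison MEG3 was called only with no filter, at an adjusted p of 0.0169.

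The difference of the doxorubicin effects, deleted minus intact, contains the contrast used to choose the list and is described only. It was 6.62 on the log2 scale for H19, 1.35 for IGF2, 0.77 for MEG3, 0.14 for CDKN1C, -0.32 for SGCE, -0.63 for MEST and -1.11 for PEG10. The threshold was passed by 3 of the 7, H19, MEST and PEG10, where 17.0% of all genes passed, 10.3% higher and 6.74% lower, and nothing is read from this count. The part of MEG3 from deleted cells was 0.43 and that from intact cells -0.34, with treated and DMSO libraries overlapping in both. MEG3 missed the threshold for the difference here and passed it in 9 of 23 alternatives, DESeq2, library totals and GC offsets among them.

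Ratios within a library do not depend on scaling. The count of H19 was 34.4, 47.4 and 37.8 times that of IGF2 in deleted doxorubicin libraries, and 1.86, 1.90 and 3.05 times in deleted DMSO libraries. It was 8, 0.700 and 1.64 times that of IGF2 in intact doxorubicin and 2, 3.25 and 10 times in intact DMSO libraries, where IGF2 had 4 to 20 counts. The ratio was thus highest in the deleted doxorubicin libraries, with no overlap with any other group. PEG10 had 2.25 ± 0.20 times the counts of SGCE in deleted doxorubicin and 4.44 ± 0.81 times in deleted DMSO libraries, against 6.55 ± 0.96 times in intact doxorubicin and 7.53 ± 0.61 times in intact DMSO libraries (SD, n = 3 each). MEG3 had 11 ± 1.1 times the counts of its neighbour MEG8 in deleted doxorubicin, 7.25 ± 0.72 times in deleted DMSO, 7.88 ± 0.92 times in intact doxorubicin and 6.90 ± 0.94 times in intact DMSO libraries. The ratio of MEST to COPG2, the gene that overlaps it, was 0.227 ± 0.015 in deleted doxorubicin and 0.394 ± 0.009 in deleted DMSO, against 0.876 ± 0.023 in intact doxorubicin and 1.23 ± 0.05 in intact DMSO libraries. The ratio of MEST to COPG2 separated all 4 groups, as the level of MEST did.

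**Figure D3:**
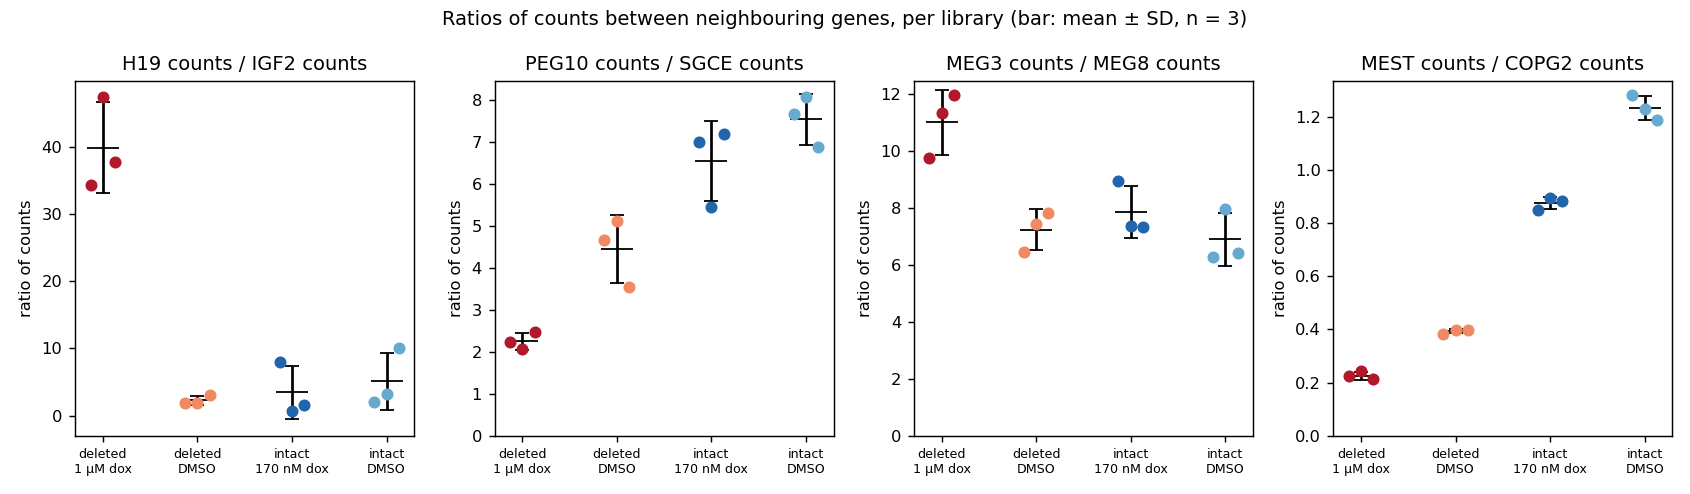
Ratio of the counts of 2 genes in the same library, for H19 over IGF2, PEG10 over SGCE, MEG3 over MEG8 and MEST over COPG2, with the mean and SD of 3 libraries. The ratio of PEG10 to SGCE is lowest in the deleted doxorubicin libraries, at 2.07 to 2.47, and that of MEST to COPG2 runs from 0.213 to 1.28 without overlap between groups.

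Within 250 kb of the start of H19, 11 genes were tested. With 1 µM doxorubicin in deleted cells, the contrast used to choose H19, 6 of the 11 passed the threshold as higher and 0 as lower, where 17.5% of all genes passed as higher. Nothing is read from this count, since TNNT3, SYT8, TNNI2 and MRPL23-AS1 also reached the filter on low counts through the deleted doxorubicin libraries. IGF2 reached it through the libraries of the deleted label. The 6 were IGF2, MRPL23-AS1 (an antisense RNA), TNNT3 and TNNI2 (troponins of fast skeletal muscle), LSP1 (an actin-binding protein of leukocytes) and SYT8 (a synaptotagmin). All but IGF2 lie on the same side of H19, 11.6 to 173 kb from it, which is the side away from IGF2. Of the 11 genes tested only IGF2 and TH lie on the other side, so nothing is read from the side. LSP1 averaged 1.5 CPM in deleted doxorubicin, 0.190 in deleted DMSO, 0.290 in intact doxorubicin and 0.446 in intact DMSO libraries. TNNT3 averaged 1.12, 0.0919, 0.00864 and 0.0204 CPM in the same groups, and SYT8 1.02, 0.0709, 0.00864 and 0.0654 CPM. TNNI2 averaged 0.387 CPM in deleted doxorubicin and 0.00453 in deleted DMSO libraries, a single count. MRPL23-AS1 averaged 1.04 CPM in deleted doxorubicin and 0.0520 CPM in deleted DMSO libraries and had 0 counts in both intact groups. All but LSP1 of these 5 genes were near 0 outside the treated deleted libraries, and each of the 5 stayed under 2 CPM on average within them. LSP1 had 15 to 44 counts in every intact library.

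The abundant genes within 250 kb, MRPL23 and CTSD, did not pass the threshold with 1 µM doxorubicin in deleted cells. MRPL23 did pass as higher in deleted than in intact cells in DMSO, by 0.56 on the log2 scale (adjusted p = 0.0428 by edgeR). Between treated cells it was higher by 0.55 (adjusted p = 0.0342 by edgeR). MRPL23, a mitochondrial ribosomal protein gene that lies 54.2 kb from H19, between TNNT3 and MRPL23-AS1, averaged 18 CPM in deleted doxorubicin and 16.5 CPM in deleted DMSO libraries, a log2 difference of 0.13. CTSD, a lysosomal protease gene at 237 kb, averaged 58.8 CPM in treated and 44.8 CPM in DMSO libraries of the deleted label, a log2 difference of 0.39. TH, a low-count gene past IGF2, averaged 0.220 CPM in treated and 0.397 CPM in DMSO libraries. Farther out, DUSP8 at 430 kb passed as higher, at 16.6 CPM in treated and 8.62 CPM in DMSO libraries of the deleted label, a log2 difference of 0.95. MUC2, an intestinal mucin gene 927 kb away, was at 5.59 CPM in treated and 0.744 CPM in DMSO libraries of the deleted label. LSP1 is best known from blood cells. The summed level of 7 blood markers ran from 3.28 to 4.81 CPM in deleted doxorubicin and from 0.789 to 1.43 CPM over the other 3 groups, with HBA1 at 3 counts or fewer in any library. The part of blood cell RNA in the LSP1 level was not tested.

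**Figure D4:**
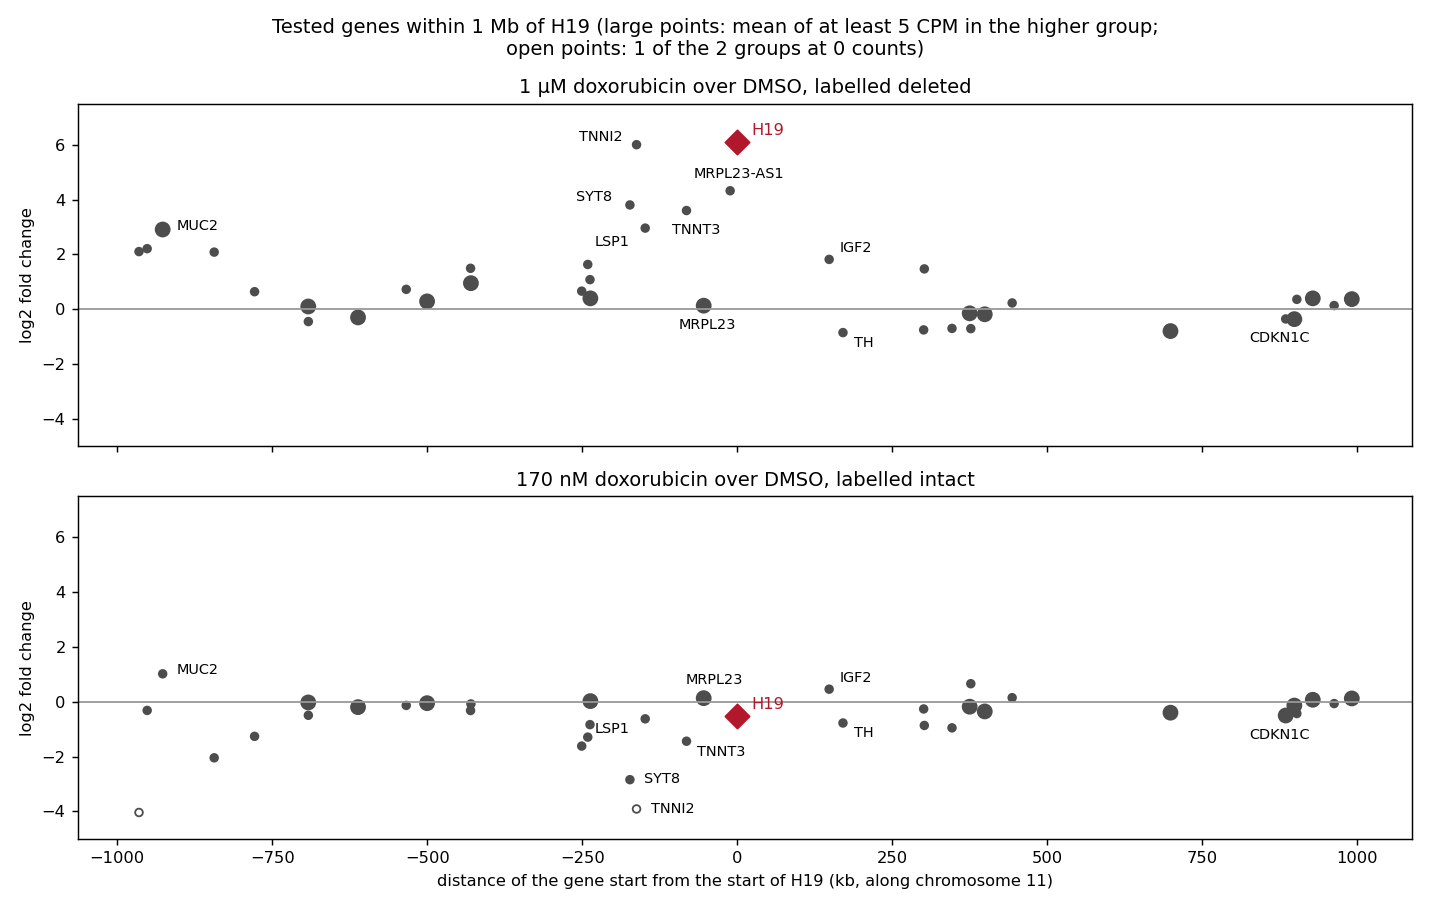
Log2 fold change of every tested gene within 1 Mb of H19 against the distance of its start from that of H19 in kb, with 1 µM doxorubicin over DMSO in deleted cells above and 170 nM over DMSO in intact cells below; genes at 0 in 1 group, whose fitted value is no bound, are open points. In the upper panel H19 is at 6.09 and LSP1, TNNT3, SYT8, TNNI2 and MRPL23-AS1 are above 2.9, while MRPL23 is at 0.13.

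Among the 21 listed neighbours of 11p15.5, 17 were tested. In DMSO 3 were higher and 4 lower in deleted cells, with a median log2 fold change of -0.20, where 34.9% of all genes passed in either direction. KCNQ1OT1, a paternally expressed antisense RNA, was higher by 1.12 (SE 0.30, adjusted p = 0.011 by edgeR), and reads of it cannot be told apart from those of KCNQ1, higher by 1.52 (SE 0.38, adjusted p = 0.00651), where they overlap. The lowest p values belonged to NAP1L4, a nucleosome assembly gene, which fell by 0.64 (adjusted p = 1.44e-05), to CARS1, a tRNA synthetase gene, which fell by 0.44 (adjusted p = 5.59e-04), and to PHLDA2, a maternally expressed growth inhibitor, which fell by 1.12 (adjusted p = 6.75e-04). INS was at 0 counts throughout.

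At 14q32, 5 of 8 listed neighbours were tested, and in DMSO 4 of the 5 fell in deleted cells and none rose, where 16.2% of all genes fell, with a median log2 fold change of -1.14. MEG8 fell by 1.14 (SE 0.12, adjusted p = 1.02e-05 by edgeR), to 16.9 ± 1.3 CPM in deleted cells, against 37.3 ± 4.5 CPM in intact cells. MEG9, the next noncoding RNA of the maternal transcript row, fell by 1.15 (SE 0.22, adjusted p = 0.00116), and WDR25 by 1.14 (SE 0.13, adjusted p = 2.08e-05). YY1, a zinc finger transcription factor, fell by 0.66 (adjusted p = 8.24e-05). Within 250 kb of MEG3, where small nucleolar RNAs of the same maternal row are counted as genes, 6 of 13 genes fell and 0 rose in DMSO, where 16.2% of all genes fell, and 10 of 13 fell and 0 rose between treated cells, where 21.9% of all genes fell. All of those snoRNA entries but SNORD114-3 averaged under 1.5 CPM in every group. Nothing is read from these counts of genes near MEG3, since some entries, SNORD113-7 and SNORD114-11 among them, reached the filter on low counts through the intact libraries. SNORD113-7 averaged 0.0435 CPM in deleted doxorubicin and 0.0537 in deleted DMSO, against 0.234 in intact doxorubicin and 0.359 in intact DMSO libraries. RTL1 and DIO3, paternally expressed like DLK1, had 12 and 4 counts over the 12 libraries.

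At 7q21, 7 of 10 listed neighbours were tested, and in DMSO 1 was higher and 4 lower in deleted cells, where 18.8% of all genes were higher and 16.2% lower, with a median log2 fold change of -0.42. TFPI2, a protease inhibitor imprinted in placenta, fell by 1.89 (SE 0.16, adjusted p = 1.41e-06 by edgeR), COL1A2, a collagen gene, by 2.38 (SE 0.40, adjusted p = 4.48e-04), and GNG11, a G protein subunit gene, was higher by 0.58 (adjusted p = 9.14e-04). PPP1R9A, an actin-binding regulator of phosphatase 1, averaged 6.75 ± 0.53 CPM in deleted doxorubicin and 14.9 ± 1.5 CPM in deleted DMSO cells, against 20.9 ± 3.2 CPM in intact doxorubicin and 20.7 ± 2.2 CPM in intact DMSO cells. At 7q32, 5 of 8 were tested and 2 fell in DMSO, CPA4 by 0.86 (adjusted p = 9.37e-06) and CPA5 by 1.44 (adjusted p = 0.0106), both carboxypeptidase genes, and the median was -0.31. MESTIT1 had 7 counts in all. At 15q11-q13, 5 of 10 were tested and UBE3A, a ubiquitin ligase gene, was higher in deleted DMSO cells by 0.42 (adjusted p = 0.0359), with a list median of 0.37. MAGEL2 and NPAP1, paternally expressed neighbours of NDN, had 6 and 4 counts over all libraries. At 19q13.4, 2 of 7 were tested, too few for their median to describe the list. ZNF71 was higher in deleted DMSO cells by 0.37 (adjusted p = 0.048), and USP29, a paternally expressed partner of PEG3, averaged 0.325 CPM in deleted doxorubicin libraries and was at 0 counts in deleted DMSO libraries.

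Of 24 imprinted genes elsewhere, 15 were tested. In DMSO 4 were higher and 1 lower in deleted cells, with a median log2 fold change of 0.16, and their share is near the 34.9% of all genes that passed in either direction. FAM50B, a paternally expressed gene, was higher by 0.96 (SE 0.19, adjusted p = 0.00171 by edgeR), GNAS, which encodes the stimulatory G protein alpha subunit, by 0.49 (adjusted p = 0.00221) and GRB10, an adaptor that restrains insulin signalling, by 0.49 (adjusted p = 0.00229). Between treated cells 7 were higher and 1 lower, near the 47.8% of all genes that passed, led by BLCAP, higher by 1.45 (SE 0.14, adjusted p = 2e-06). The 1 that was lower was WT1, a zinc finger factor gene, by 0.64 on the log2 scale.

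IGF2 acts on the receptors IGF1R and INSR, and IGF2R clears it from the cell surface. Of 22 listed genes of this signalling system 19 were tested, and in DMSO 9 were higher and 5 lower in deleted cells, where 18.8% of all genes were higher and 16.2% lower, with a median log2 fold change of 0.45. IGFBP7, a secreted binding protein, was higher by 1.38 (SE 0.11, adjusted p = 9.86e-07 by edgeR), IGF2BP2, which binds IGF2 messenger RNA, by 1.32 (SE 0.14, adjusted p = 1.15e-05), and IGFBP2 fell by 1.87 (SE 0.21, adjusted p = 1.4e-05). The receptors were higher in deleted DMSO cells, INSR by 1.07, IGF1R by 0.61 and IGF2R by 0.50. With 1 µM doxorubicin in deleted cells 3 of the 19 passed as higher and 5 as lower, with a median log2 fold change of -0.13, in the contrast used to choose H19, where 17.5% of all genes were higher and 13.1% lower, and nothing is read from this count. IGF1R averaged 156 ± 7 CPM in deleted doxorubicin and 80.5 ± 1.4 CPM in deleted DMSO cells, against 46.0 ± 4.5 CPM in intact doxorubicin and 52.6 ± 1.9 CPM in intact DMSO cells. STC2, a stanniocalcin that inhibits a protease of binding proteins, averaged 35.5 ± 1.7 CPM in deleted doxorubicin and 78.4 ± 6.6 CPM in deleted DMSO cells. IGFBP5 averaged 0.0747 CPM in deleted doxorubicin, 0.625 in deleted DMSO, 1.77 in intact doxorubicin and 2.69 in intact DMSO libraries.

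**Figure D5:**
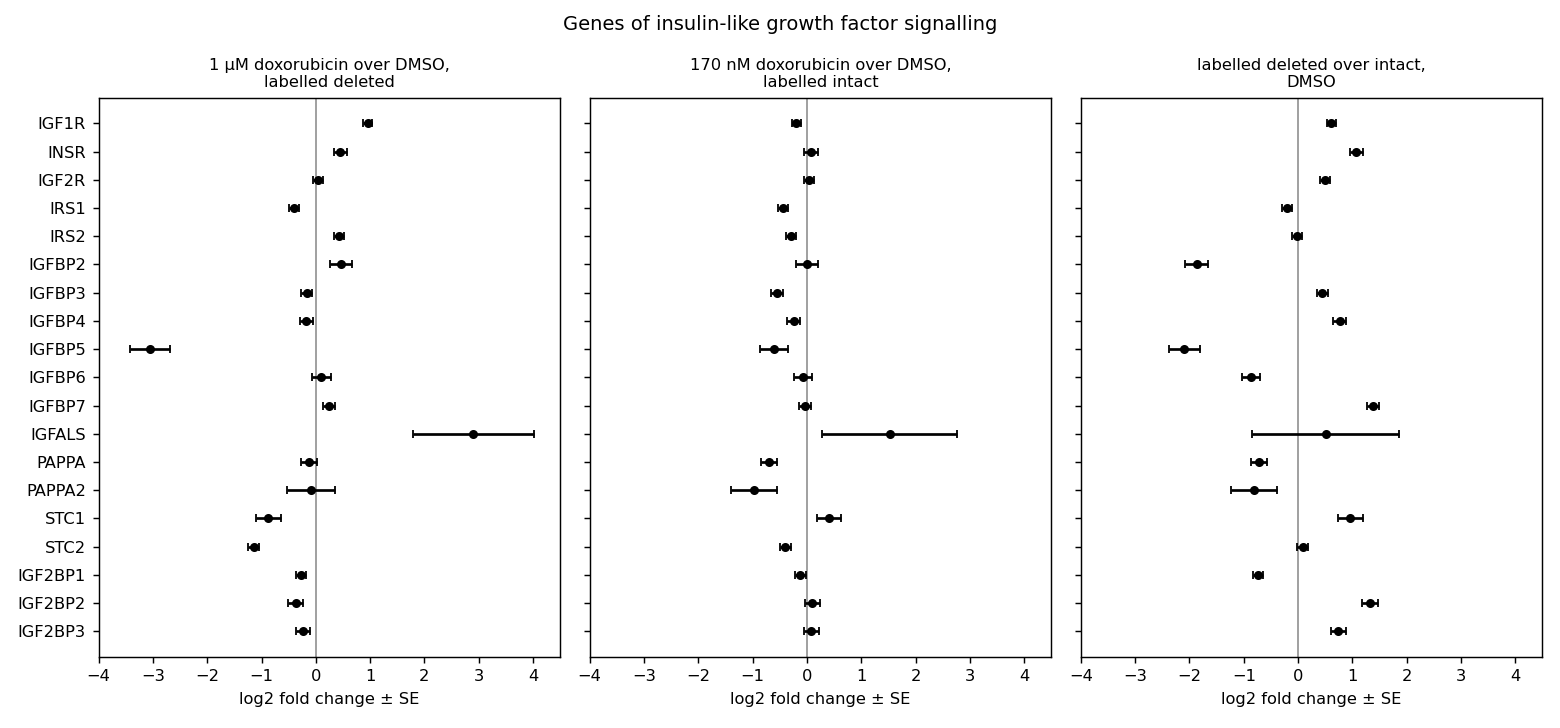
Log2 fold change ± SE of the 19 tested genes of insulin-like growth factor signalling in 3 comparisons of groups of 3 libraries. IGF1R is at 0.96 with 1 µM doxorubicin and at -0.19 with 170 nM, and IGFBP5 is at -3.05 with 1 µM; IGFALS has wide errors because it is near 0.

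Of 17 genes that set or keep imprints 13 were tested, and in DMSO 2 were higher and 4 lower in deleted cells, where 34.9% of all genes passed in either direction, with a median log2 fold change of 0.04. CTCF, which binds the H19 control region, fell by 0.74 (SE 0.12, adjusted p = 3.07e-04 by edgeR), to 69.7 ± 11.9 CPM in deleted cells, against 116 ± 5 CPM in intact cells. DNMT3B, a de novo DNA methyltransferase, fell by 0.76 (SE 0.09, adjusted p = 2.94e-05) and EHMT2, a histone H3 lysine 9 methyltransferase, by 0.68 (SE 0.10, adjusted p = 1.3e-04). DNMT3A was higher by 0.59 (SE 0.11, adjusted p = 8.14e-04), and it averaged 23.8 ± 0.7 CPM in deleted doxorubicin and 13.6 ± 0.6 CPM in deleted DMSO cells. With 170 nM doxorubicin in intact cells, 0 of the 88 tested entries of the 9 lists passed by edgeR's quasi-likelihood test, where 0.0596% of all genes passed. Of the 88, 17 had an unadjusted p under 0.05, where 2504 of 21803 genes did. DESeq2 called 6 of the 88 and 467 of all genes, and limma-voom called 0 and 25. Nothing is read from these counts.

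Patterns like that of H19 were sought among 13300 tested genes that averaged at least 1 CPM. Genes without a symbol or with a clone-based or LINC name were left out, so noncoding RNAs named in that way could not appear. The 3 whose log2(CPM + 1), centred on the mean over the 12 libraries, lay nearest to H19 were NECTIN4, DSC3 and GDF15. Their root mean square differences were 0.42, 0.52 and 0.54. NECTIN4, a cell adhesion molecule, averaged 112 CPM in deleted doxorubicin, 4.68 in deleted DMSO, 1.04 in intact doxorubicin and 1.04 in intact DMSO libraries. DSC3, a desmosomal cadherin, averaged 34.5 CPM in deleted doxorubicin and 1.49 CPM in deleted DMSO libraries, against 0.164 CPM in intact doxorubicin and 0.0694 CPM in intact DMSO libraries. GDF15, a stress-responsive secreted factor, averaged 141 CPM in deleted doxorubicin, 5.10 in deleted DMSO, 4.32 in intact doxorubicin and 3.8 in intact DMSO libraries. With a pseudocount of 0.1, the nearest 3 were FLJ36000, NECTIN4 and DSC3.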

How the data were processed

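The deposited table holds raw counts per gene for 12 libraries (total RNA, KAPA RNA Hyper Prep, paired-end reads of 100 bases, per the labels' protocols). Per the submitters' processing notes, bcl2fastq, STAR 2.7.9a, featureCounts of Subread 2.0.1 and hg38 were used; annotation release and strand setting: not given in the sources used here. From these counts genes were filtered (filterByExpr), TMM scaled and fitted together, 4 groups and no covariates, by the quasi-likelihood method of edgeR 4.0.16 (R 4.3.3); 21803 genes entered the adjustment, at a threshold of 0.05. SE is the log2 fold change divided by the root of F. Alternatives were other scalings, filters and fits, DESeq2 1.42.0, limma 3.58.1, a replicate block, GC offsets (span 0.5) and left-out libraries. In simulated counts, 61.1% of 2-fold and 81.8% of 4-fold changes were recovered for the 170 nM contrast among 21803 genes. Replicates differed by more than sampling noise (chi-square per degree of freedom 8.42 to 204). The members and lists were chosen with earlier results of these data known. Of the lists, up to 3 members past the threshold with the lowest p were named, plus those near 0; others, and the neighbours of H19, were named after their values were seen. Of the identifiers 60419 had a symbol and 58429 a GENCODE 29 position.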

Additional observations from a re-analysis of the deposited data

Results flagged for a closer look

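For 3 genes the interaction term of the edgeR fit, the doxorubicin effect in deleted cells at 1 µM minus that in intact cells at 170 nM, passed the threshold. Over all genes 17.0% passed, 10.3% higher and 6.74% lower. The term contains the contrast used to choose the list, so it is given as a description. The difference, deleted minus intact on the log2 scale, was 6.62 for H19, which was the reason for the choice of the list, so this value is no independent evidence. It was -1.11 for PEG10, whose treated over DMSO values were -1.23 in deleted and -0.12 in intact cells. It was -0.63 for MEST, at -1.09 in deleted and -0.46 in intact cells. Dose and genotype cannot be told apart in any of the 3.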

How the results depend on the processing

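The counts of imprinted genes past the threshold in DMSO, with 1 µM, between treated cells and in the difference stayed within 1.5 times under every alternative run. With 170 nM in intact cells the count was 0, and it was 1, MEST, with library totals as the scaling, no filter, a filter of 1 CPM, DESeq2, limma-voom, GC offsets, GC offsets with the replicate block and without the 2 libraries of highest mitochondrial share; leaving out 1 library gave 0 to 1. The cause was not tested. Leaving out 1 library moved SGCE in DMSO from -0.11 to 0.065, above 0 without deleted DMSO replicate 1 or intact DMSO replicate 3. With 170 nM it moved IGF2 from -0.22 to 0.90 and PEG10 from -0.23 to 0.0070, in both cases past 0 without intact doxorubicin replicate 2. Other changes of sign were SGCE at -0.0028 with 170 nM by library totals and CDKN1C in the difference, at -0.19 with GC offsets and -0.18 with the block as well. The GC offsets of each library were centred after a shift of the median over all genes had been seen. Over all genes the count with 170 nM was 13 and ran from 0 to 467, and library totals moved the share of higher calls from 46.2% to 14.6%. In the difference, library totals moved that share from 60.3% to 71.3% and the median of all genes from -0.03 to 0.08. With 2-fold asked as well the counts over all genes were 2651 in DMSO and 2921 with 1 µM, against 7618 and 6684. Of the list counts 899 kept within 1.5 times and 181 did not. Same-numbered libraries did not deviate together (r -0.224 to 0.118 over 18 pairs), and with the replicate block the counts of imprinted genes called were the same, with 6720 genes called in DMSO and 0 with 170 nM.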
